A study of Mus musculus with 6 samples.

Results

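The genes described here encode proteins of the mitochondrial ribosome. They were taken as every symbol that begins with Mrpl or Mrps followed by a number in any of the 4 deposited gene tables, which gave 76 of 18778 genes, 47 named for the large subunit (Mrpl) and 29 for the small subunit (Mrps). The rule picks by name and uses no measured value, though the gene family was proposed with earlier results of these data known. The cells were mouse neural stem cells (NSCs) of the C57BL/6 strain, derived from embryonic stem cells, at day 0 and passages 25 to 30, grown with FGF2 and EGF in N2 medium, and the neurons made from them. The neurons were collected at day 11, after 4 days with B27, N2 and less FGF2 and 7 days in N2B27, and were sorted as positive for RedStar, a red fluorescent protein driven by the Tau promoter. Each cell type had 1 library for H3K4me3, 1 for H3K27me3 and 1 input, all from chromatin fixed in 1% formaldehyde and sheared to about 300 bp. With 1 library per group no difference has a replicate check, no test between the cell types could be made, and the intervals given are exact 95% binomial intervals that cover counting error only.

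The mitochondrial ribosome translates the few messages of the mitochondrial genome, which encode subunits of the respiratory chain and ATP synthase. Its RNAs come from the mitochondrial genome, but its proteins are encoded in the nucleus, translated in the cytosol and imported. About the core of proteins shared with bacterial ribosomes sit others that are particular to mitochondria. The genes are used in nearly every cell and have CpG-rich promoters, where H3K4me3, the trimethyl mark on lysine 4 of histone H3, is usually found. H3K27me3 is the mark of Polycomb repression. Such promoters serve here as a yardstick: they show how 2 H3K4me3 libraries compare at start sites that carry the mark in both cell types.

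Promoter sequences are shown for 5 members to which the values below return. They were chosen for the densest (Mrpl51, Mrpl22) and the sparsest (Mrpl45) H3K4me3 peak in NSCs, for the nearest H3K27me3 (Mrpl23) and for a start region that serves a pair of members (Mrps11, with Mrpl46). Each runs 5′ to 3′ on the gene's strand from 250 bases before to 50 bases after the RefSeq start, on GRCm38.p6. Capitals mark matches on either strand to the letters CCGGAAG (the core bound by ETS factors), GCATGCGC (nuclear respiratory factor NRF1), AAGATGGC (YY1) and GGGCGG (SP1). The positions belong to another build than the peaks, which are on mm9, and were not placed on them.
Mrpl51, chr6:125191950-125192249, plus strand: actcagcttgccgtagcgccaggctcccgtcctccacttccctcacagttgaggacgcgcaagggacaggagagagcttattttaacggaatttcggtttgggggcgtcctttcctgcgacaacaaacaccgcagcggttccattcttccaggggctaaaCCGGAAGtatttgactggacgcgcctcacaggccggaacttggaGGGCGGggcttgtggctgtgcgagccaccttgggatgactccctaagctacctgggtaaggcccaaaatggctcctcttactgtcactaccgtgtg
Mrpl22, chr11:58171414-58171713, plus strand: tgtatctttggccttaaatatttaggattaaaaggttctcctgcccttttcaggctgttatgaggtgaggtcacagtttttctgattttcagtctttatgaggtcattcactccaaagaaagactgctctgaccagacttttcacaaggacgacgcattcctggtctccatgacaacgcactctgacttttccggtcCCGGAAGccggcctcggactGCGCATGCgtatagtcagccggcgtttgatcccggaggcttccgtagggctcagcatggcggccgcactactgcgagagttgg
Mrpl45, chr11:97315466-97315765, plus strand: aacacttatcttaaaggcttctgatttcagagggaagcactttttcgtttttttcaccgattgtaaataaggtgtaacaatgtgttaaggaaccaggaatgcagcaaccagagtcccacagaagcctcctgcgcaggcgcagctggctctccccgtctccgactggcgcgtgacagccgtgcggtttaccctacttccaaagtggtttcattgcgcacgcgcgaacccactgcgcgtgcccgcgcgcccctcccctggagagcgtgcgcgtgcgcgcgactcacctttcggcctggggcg
Mrpl23, chr7:142532782-142533081, plus strand: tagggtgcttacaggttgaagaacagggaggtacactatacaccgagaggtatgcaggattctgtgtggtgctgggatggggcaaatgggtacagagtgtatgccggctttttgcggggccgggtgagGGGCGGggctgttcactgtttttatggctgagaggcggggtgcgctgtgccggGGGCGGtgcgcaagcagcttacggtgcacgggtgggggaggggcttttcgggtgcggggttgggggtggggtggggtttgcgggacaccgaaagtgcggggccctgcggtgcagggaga
Mrps11, chr7:78782881-78783180, plus strand: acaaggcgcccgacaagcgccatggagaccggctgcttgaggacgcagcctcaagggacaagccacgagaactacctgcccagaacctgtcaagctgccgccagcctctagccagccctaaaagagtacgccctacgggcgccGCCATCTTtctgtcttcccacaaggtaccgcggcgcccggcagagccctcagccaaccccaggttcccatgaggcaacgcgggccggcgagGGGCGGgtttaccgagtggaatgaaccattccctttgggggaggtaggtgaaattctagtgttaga

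The Mrpl51 window held 1 ETS and 1 SP1 match, and the Mrpl22 window 1 ETS and 1 NRF1 match. The Mrps11 window held 1 YY1 and 1 SP1 match, the Mrpl23 window 2 SP1 matches, and the Mrpl45 window none of the 4. Only the exact letters were searched, so other forms of these sites were not counted. The Mrpl45 window held gcacgcgc, which differs from the NRF1 letters in 1 base. Over the 73 RefSeq promoters found for 67 members, 32.9% held the ETS letters, 11% the NRF1 letters and 16.4% the YY1 letters. Among all 32851 mouse promoters of the same 300 base length the shares were 8.86%, 2.71% and 2.75%, and among the 10227 promoters of genes with H3K4me3 in NSCs they were 17.3%, 5.56% and 4.4%. The SP1 letters stood in 52.1% of the members' promoters, against 35.7% of all and 66% of those with H3K4me3 in NSCs. TATAAA was found in 6.85%, 13.6% and 6.49%, and CCAAT in 41.1%, 37.4% and 38.1%, in the same order. The NRF1 letters can match both strands at one place, since the longer site they come from is a palindrome. The median CpG count was 21 per member promoter, 7 over all promoters and 22 over those of genes with H3K4me3 in NSCs. A match is a run of letters and was not shown to be bound.

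H3K4me3 was called within 1000 bp of the start site at 74 of the 76 members in NSCs and at 74 in neurons. Over all 18778 genes this held for 70.4% in NSCs and 61.7% in neurons, a set that leans towards genes near peaks, since the tables name genes by their peaks. None of the 76 had the mark in NSCs and lacked it in neurons, against 9.55% of all genes, and none gained it, against 0.831%. The NSC peak covered the start site at 73 of the 74, against 95.2% of all marked genes, and at Mrpl17, the exception, it began 14 bp into the gene. The neuron peak covered it at 68 of the 74, against 84.6%. At a false discovery rate (FDR) under 1e-20 the members with a peak were 74 in NSCs, against 66.5% of all genes, and 50 in neurons, against 40%. At the stricter limit the neuron library therefore lacked 24 of the members at which it listed a peak, all listed peaks having an FDR under 0.001.

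Mrpl33 and Mrps24 had no peak at the annotated start site in either library. They encode the counterparts of bacterial ribosomal proteins L33 and S3. The deposited gene model of Mrps24, on chromosome 11 from 5603986 to 5615683 (mm9), is 11698 bp long, against 3720 bp for the RefSeq gene. A peak from 5606600 to 5607799 lay inside the model, 7884 bp from its start, and held 228 immunoprecipitated reads over 12 input reads in NSCs and 66 over 14 in neurons. It began and ended at the same bases in NSCs and neurons, and no other start site in the tables lay within it. The model of Mrpl33 spans 105038 bp, against 8694 bp in RefSeq. The nearest peak lay 16892 bp inside it, with 116 reads over 19 in NSCs and 66 over 16 in neurons, and it held no start site from the tables either. The neuron to NSC ratio of immunoprecipitated reads per kb was 0.289 at the Mrps24 peak and 0.506 at the Mrpl33 peak. Whether these peaks mark the start sites in use was not tested.

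**Figure D1:**
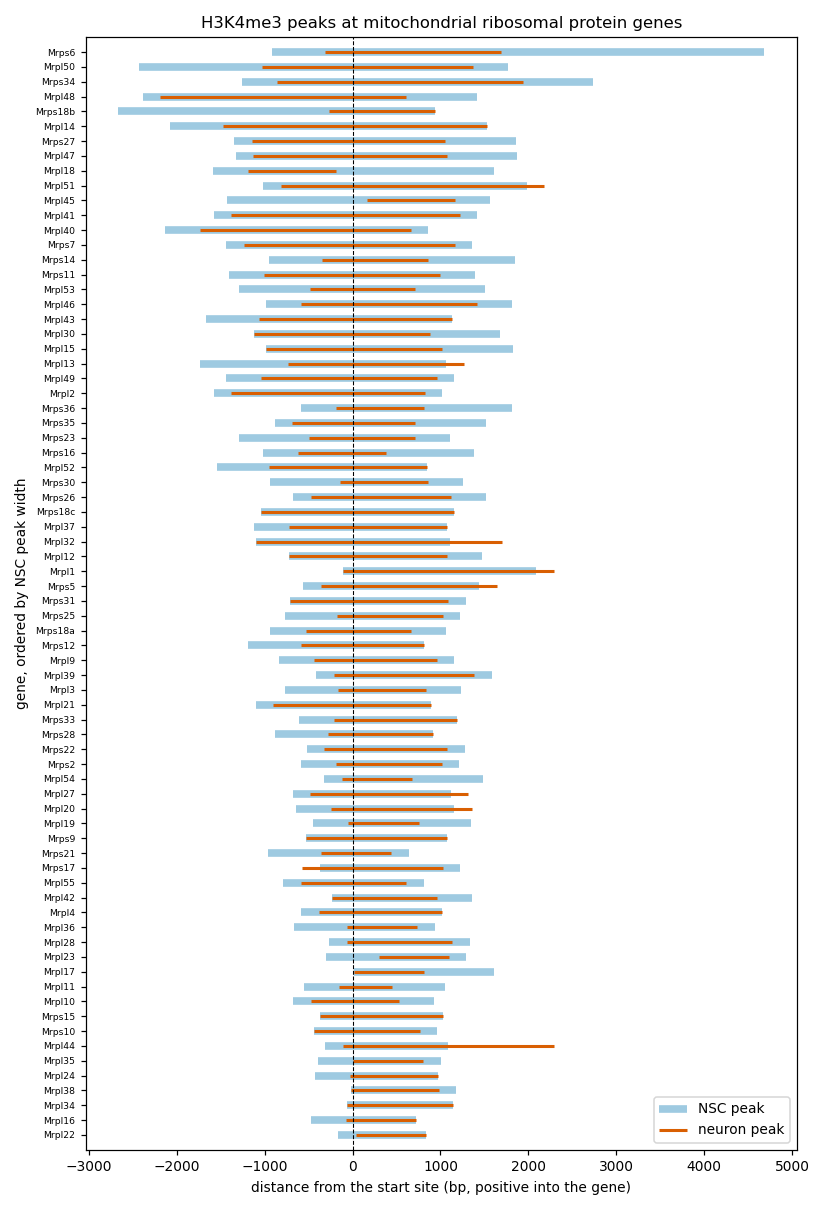
Extent of the H3K4me3 peak around the start site of each of the 74 marked members, in bp from the start site with positive values into the gene. Wide pale bars are NSC peaks and thin orange bars neuron peaks, ordered by NSC width, and most orange bars lie inside the pale ones.

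The H3K4me3 peaks of the members were of ordinary width and narrower in neurons. In NSCs the narrowest was 1000 bp, the median 2000 bp and the widest 5600 bp. In neurons these were 600 bp, 1400 bp and 3000 bp. The NSC and neuron medians over all marked genes were 2200 and 1800 bp. The neuron peak was narrower at 63 of the 74 members, against 81% of all genes with a peak in both cell types. It was equally wide at 8, against 7.91%, and wider at 3 (Mrpl1, Mrpl32 and Mrpl44), against 11.1%. The median neuron to NSC ratio of width was 0.71 over members and 0.73 over all genes. The neuron peak lay inside the bounds of the NSC peak at 65 members, against 76.6% of all genes.

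The neuron peaks were called narrower on both sides of the start site. The neuron H3K4me3 library had fewer reads in peaks, 983266 against 3623654 in NSCs. The part of depth in the called bounds was not tested. In NSCs the median reach was 860.5 bp upstream and 1227 bp into the gene, and in neurons 476 bp and 1003.5 bp. The upstream edge of the neuron peak lay further in at 59 members and the downstream edge at 49, with both further in at 40. These edges were not counted over all genes, of which 76.6% of those marked in both cell types had the neuron peak inside the NSC bounds. The median difference was 400 bp upstream and 200 bp downstream. Over all genes the median was 200 bp on each side. Peak bounds move in steps of 200 bp, so these medians are 2 steps and 1 step.

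The widest NSC peaks belonged to Mrps6, Mrpl50, Mrps34 and Mrpl48. Mrps6, the counterpart of bacterial protein S6, had the widest, 5600 bp, holding 456 immunoprecipitated and 59 input reads in NSCs. In neurons it was 2000 bp with 104 over 14. The NSC peak reached 4684 bp into the gene and the neuron peak 1684 bp. The Mrpl50 peak was 4200 bp wide with 403 reads over 38 in NSCs and 2400 bp with 116 over 23 in neurons. It also covered the start of Zfp189, a zinc finger gene on the other strand whose start lay 83 bp away. The Mrps34 peak, 4000 bp with 430 over 45 in NSCs and 2800 bp with 154 over 25 in neurons, held 3 start sites, among them that of Eme2, of a DNA endonuclease subunit. The Mrpl48 peak was 3800 bp with 376 over 41 in NSCs and 2800 bp with 146 over 20 in neurons.

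The narrowest NSC peaks were those of Mrpl22, Mrpl16, Mrpl34 and Mrpl38. Mrpl22, whose bacterial counterpart L22 lines the exit tunnel of the ribosome, had 188 reads over 14 in 1000 bp in NSCs and 45 over 5 in 800 bp in neurons. Mrpl16 had 128 over 14 in 1200 bp in NSCs and 38 over 10 in 800 bp in neurons. Mrpl34 had 140 over 10 in NSCs and 43 over 14 in neurons, within the same 1200 bp. Mrpl38, of a protein particular to mitochondria, had 175 over 12 in 1200 bp in NSCs and 72 over 5 in 1000 bp in neurons. Each of these 4 peaks held a single start site.

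**Figure D2:**
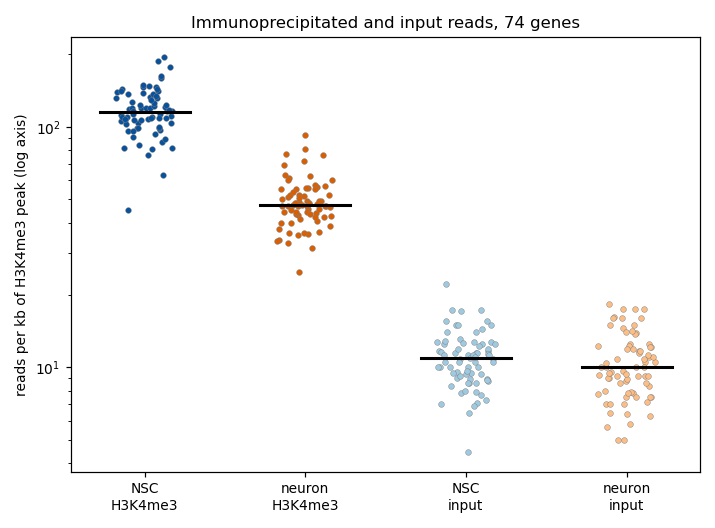
Immunoprecipitated and input reads per kb of H3K4me3 peak in NSCs and neurons at the 74 members (log axis, 1 point per gene, bars are medians). The medians were 115 and 47.5 immunoprecipitated reads per kb and 10.9 and 10.0 input reads per kb.

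Immunoprecipitated read density differed more between NSCs and neurons than input density did. Each input is a separate library, so its density does not give the depth of the immunoprecipitated one. In NSCs the members' peaks held from 45.0 to 195 immunoprecipitated reads per kb, with a median of 115, and in neurons from 25.0 to 92.5, with a median of 47.5. Input reads in the same peaks had medians of 10.9 per kb in NSCs and 10.0 per kb in neurons. Input density was higher in neurons at 30 members, lower at 43 and equal at 1. Over all 11424 genes with a peak in both cell types, the neuron to NSC ratio of input density had quartiles of 0.67 and 1.07. The immunoprecipitated density was lower in neurons at all 74. That was general, since over all those genes its neuron to NSC ratio had quartiles of 0.36 and 0.50. In such bulk chromatin fewer cells with the mark and less of it per cell cannot be told apart, and library depth, not known here, enters each count. Among all marked genes the medians were 97.3 immunoprecipitated reads per kb in NSCs and 42.3 in neurons, and 10.5 and 9.09 input reads per kb. The members stood above the middle of all marked genes in both libraries, 61 of the 74 above the median in NSCs and 56 in neurons. This was not particular to them. The medians of the gene groups compared below also lay above, from 104 to 137 in NSCs and 42.9 to 47.2 in neurons.

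Summed over the 73 peaks that mark the 74 members, NSCs had 18990 immunoprecipitated and 1822 input reads over 164600 bp. Neurons had 5620 and 1211 over 115000 bp. These peaks held 0.524% of the reads in all NSC H3K4me3 peaks (95% interval 0.517 to 0.532) in 0.287% of their length. In neurons they held 0.572% (0.557 to 0.587) in 0.466% of the length. The called length behind these shares differs, 57.3 Mb in NSCs and 24.7 Mb in neurons.

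The median neuron to NSC ratio of immunoprecipitated reads per kb was 0.41 over members, with quartiles of 0.36 and 0.49, and 0.42 over all 11424 genes with a peak in both cell types. It was under 0.5 at 56 of the 74 members, which is 75.7%, against 74.7% of all genes, so the members lay at the background. The interval of the ratio lay wholly under 0.5 at 28 members and wholly above it at 4. Such intervals were not counted over all genes, so these counts have no background. The median ratio of input reads per kb was 0.88 over members and 0.86 over all genes, and that of the authors' fold over input was 0.46 and 0.48. The fold was lower in neurons at all 74 members, and over all genes the upper quartile of its ratio was 0.64. It was under 0.5 of the NSC fold at 42 members, against 53.2% of all genes. Summed over each library's own peaks, which differ in bounds and total length, there were 10.4 immunoprecipitated reads per input read in NSCs and 4.64 in neurons, with no scaling for depth.

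**Figure D3:**
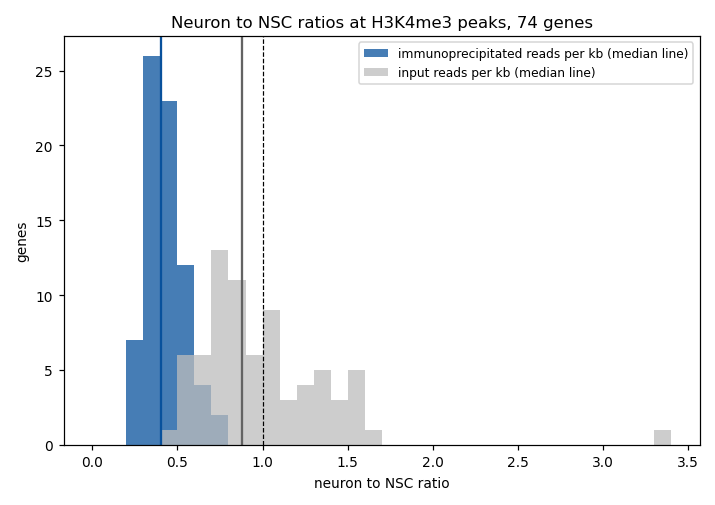
Neuron to NSC ratios at the H3K4me3 peaks of the 74 members, as counts of genes per bin of 0.1. Immunoprecipitated reads per kb (blue, median 0.41) lie below the dashed line of equality at each gene, and input reads per kb (grey, median 0.88) lie on both sides of it.

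The ratio per kb moved with how far the peak had narrowed. At the 11 members whose neuron peak was as wide as the NSC peak or wider, its median was 0.31, with a range of 0.26 to 0.40. At the 34 with a neuron peak of 0.7 to under 1 of the NSC width it was 0.39, and at the 29 with a narrower one 0.46, with a range of 0.30 to 0.79. Undivided by width, the order was the other way, with median ratios of reads per peak of 0.33, 0.31 and 0.26. Across the 74 members the width ratio and the ratio per kb had a Pearson r of -0.62 and a Spearman rho of -0.67, and across all genes -0.28 and -0.46. Both ratios share the peak widths, so this relation is partly one of arithmetic.

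At 4 members the bounds were identical in NSCs and neurons, against 3.38% of all genes, and there width plays no part. Mrps9, of the counterpart of bacterial protein S9, had 260 reads over 25 in NSCs and 86 over 15 in neurons within 1600 bp. Mrps15 had 209 over 12 and 59 over 17 within 1400 bp. Mrps18c had 280 over 19 and 105 over 14 within 2200 bp. The fourth was Mrpl34, given above. Their neuron to NSC ratios of immunoprecipitated reads were 0.33 (0.26 to 0.42), 0.28 (0.21 to 0.38), 0.38 (0.30 to 0.47) and 0.31 (0.21 to 0.44). Their median was 0.32, against 0.36 over the 386 genes with same-bound peaks. The counts of input reads are small, and their ratios ran from 0.60 at Mrps9 to 1.42 at Mrps15.

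**Figure D4:**
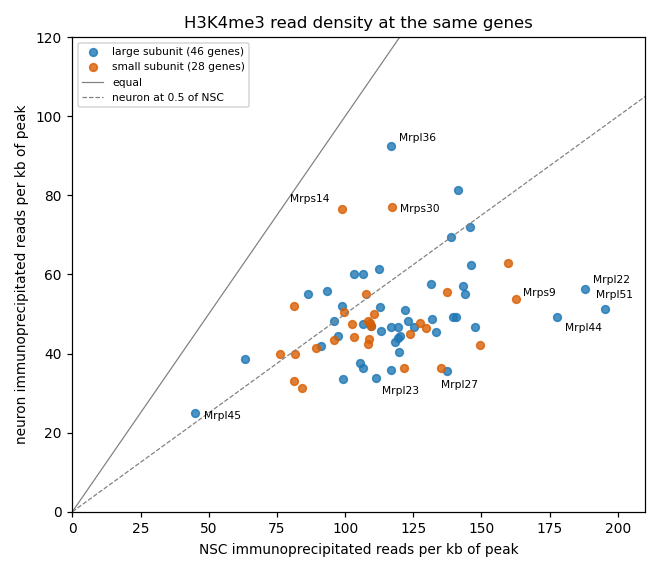
Immunoprecipitated reads per kb of H3K4me3 peak in NSCs (horizontal) and neurons (vertical) for the 74 members, coloured by subunit as the symbol names it. Each point lies under the solid line of equality, and 56 lie under the dashed line at 0.5.

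The densest NSC peaks were at Mrpl51, Mrpl22, Mrpl44 and Mrps9, the 4 chosen for that value. Mrpl51, of a protein particular to mitochondria, had 586 reads over 52 input reads in NSCs and 154 over 48 in neurons, both in 3000 bp. Its density was 195 per kb in NSCs and 51.3 in neurons, a ratio of 0.26 (0.22 to 0.31). The peak also holds the start of Ncapd2, of a condensin subunit, on the other strand 206 bp away. Mrpl22 had a density of 188 per kb in NSCs and 56.2 in neurons, a ratio of 0.30 (0.21 to 0.42).

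Mrpl44, whose protein has a ribonuclease III-like fold, is on chromosome 1. Its NSC peak held 249 reads over 31 in 1400 bp and its neuron peak 118 over 29 in 2400 bp. This was the largest widening among the members, and the ratio per kb was 0.28 (0.22 to 0.35). Mrps9, also on chromosome 1, stood at 162 per kb in NSCs and 53.8 in neurons. The 5 members on chromosome 1 had a median of 15.6 input reads per kb in NSCs and 16.0 in neurons, above the medians over all members, and the part of this in their peaks was not tested.

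The lowest densities in NSCs were at Mrpl45, Mrpl54, Mrps28 and Mrps36. Mrpl45, which in mammals lies at the tunnel exit and links the ribosome to the inner membrane, had 135 reads over 38 in 3000 bp in NSCs, or 45.0 per kb. In neurons it had 25 over 9 in 1000 bp, or 25.0 per kb, the lowest of the members there as well, and that peak began 170 bp downstream of the start site. Mrpl54 had 114 over 19 in 1800 bp and 31 over 7 in 800 bp. Mrps28, related to bacterial protein S1, had 137 over 28 in 1800 bp and 48 over 13 in 1200 bp. Mrps36, since assigned to the 2-oxoglutarate dehydrogenase complex, had 195 over 26 in 2400 bp and 33 over 16 in 1000 bp. The ratio per kb was 0.56 (0.35 to 0.86) at Mrpl45, 0.61 (0.40 to 0.92) at Mrpl54, 0.53 (0.37 to 0.74) at Mrps28 and 0.41 (0.27 to 0.59) at Mrps36.

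The highest neuron to NSC ratios per kb were those of Mrpl36, Mrps14, Mrps30 and Mrps6, the 4 members whose interval lay above 0.5. These intervals take the called widths as fixed. Each had a neuron peak of 0.5 or less of the NSC width. Mrpl36 had 187 reads over 21 in 1600 bp in NSCs and 74 over 14 in 800 bp in neurons, with the highest density of the members in neurons, 92.5 per kb, and a ratio of 0.79 (0.60 to 1.04). Mrps14 had 277 over 42 in 2800 bp and 92 over 21 in 1200 bp, a ratio of 0.77 (0.61 to 0.98). Mrps30, a protein found in the large subunit of the mammalian mitochondrial ribosome despite its name, had 258 over 25 in 2200 bp and 77 over 11 in 1000 bp, a ratio of 0.66 (0.50 to 0.85). The ratio at Mrps6 was 0.64 (0.51 to 0.79). Undivided by width, the ratios of reads were 0.40, 0.33, 0.30 and 0.23 in that order, against a median of 0.30 over members. That of Mrps6 lay below the members' lower quartile of 0.26.

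The lowest ratios per kb were those of Mrpl27, Mrpl51, Mrps17 and Mrpl44, none of which had a narrower peak in neurons. At Mrpl44, where the neuron peak was wider, the ratio of reads undivided by width was 0.47, above the members' upper quartile of 0.33. Mrpl27, whose bacterial counterpart L27 reaches towards the peptidyl transferase centre, had 247 reads over 18 in NSCs and 64 over 27 in neurons, both in 1800 bp, a ratio of 0.26 (0.19 to 0.34). Mrps17 had 216 over 20 and 58 over 19, both in 1600 bp, a ratio of 0.27 (0.20 to 0.36).

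Between Mrpl and Mrps genes, and between the 2 kinds of protein, each median ratio lay within the quartiles of the other. The split follows the symbol, so genes such as Mrps30 and Mrps36 count here with the small subunit. The median ratio per kb was 0.40 over 46 Mrpl genes and 0.43 over 28 Mrps genes. NSC densities had medians of 119 and 109 per kb and neuron densities 48.3 and 46.8. For the 46 marked genes of proteins with a bacterial counterpart the median ratio was 0.39 and the median NSC width 1900 bp. For the 27 of proteins particular to mitochondria these were 0.44 and 2400 bp.

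Many members shared a start region with a gene on the other strand. For 21 of the 76 the tables held such a start within 1000 bp upstream, against 12.3% of all genes. The partners included Fau, of a fusion of ubiquitin-like and ribosomal protein S30, beside Mrpl49, Psma2, of a proteasome subunit, beside Mrpl32, and Sars2, the mitochondrial seryl-tRNA synthetase, beside Mrps12. Peo1, of the mitochondrial DNA helicase, stood beside Mrpl43. The NSC peak held 2 or more start sites at 33 of the 74 marked members, against 33.1% of all marked genes. The distances of these partners were 193, 222, 201 and 116 bp, and the 4 pairs were chosen after their values were seen. The 4 partners were picked from 19 that have a symbol, which also included Lrrc46, Klc4, Hira and Zfp661. The 21 had a median NSC width of 2800 bp and the 53 other marked members 2000 bp, against 2600 bp and 2200 bp over all genes split the same way. Their NSC peaks reached 1261 bp upstream in the median, against 666 bp at the others. The median ratio per kb was 0.38 with a partner and 0.43 without, and over all genes 0.41 and 0.42.

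Mrps11 and Mrpl46 were marked by a single peak in each cell type, so they count as 1 measurement. It held 307 reads over 25 in 2800 bp in NSCs and 94 over 14 in 2000 bp in neurons. In the deposited models the starts of the pair overlap by 412 bp, whereas the RefSeq starts lie 42 bases apart and point away from each other, so the Mrps11 window printed above holds both.

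H3K27me3 was nearly absent from these start sites. In NSCs 1 of the 76 members had a peak within 1000 bp, against 19.2% of all genes, and in neurons none had, against 17.9%. By the gene tables the numbers were 1, against 7.74%, and 0, against 5.09%, and in the peak lists at an FDR under 1e-20 they were 1, against 13.1%, and 0, against 9.65%. Within 10 kb the numbers were 11, against 29.5%, and 13, against 29%. The median distance to the nearest H3K27me3 peak was 53237 bp in NSCs and 60095.5 bp in neurons, and over all genes 50878.5 and 51511 bp. Gene groups compared below also had few peaks within 1000 bp. In NSCs and neurons these were at 0 and 1 of 82 cytosolic ribosomal protein genes and 2 and 3 of 82 respiratory chain genes. They were at 1 and 1 of 15 ribosome assembly genes and at 0 and 0 of 17 mitochondrial tRNA synthetase genes.

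**Figure D5:**
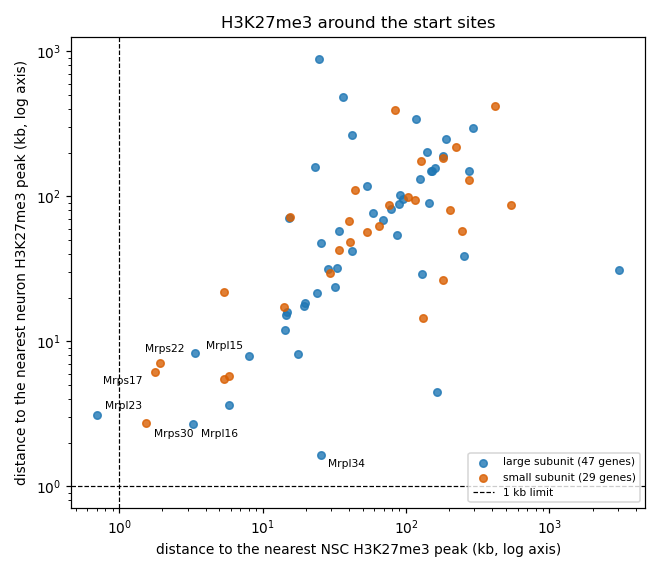
Distance in kb from the start site of each of the 76 members to the nearest H3K27me3 peak in NSCs (horizontal) and neurons (vertical), on log axes. Dashed lines mark 1 kb, and Mrpl23 is the single gene within it, in NSCs.

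The member with H3K27me3 was Mrpl23, on chromosome 7 beside the imprinted H19 and Igf2 genes, whose bacterial counterpart L23 sits at the tunnel exit. An NSC domain from 149706200 to 149717999 (mm9), with 226 reads over 103 input reads, ended 705 bp before its start site. The nearest neuron domain, from 149711600 to 149715599 with 84 over 35, ended 3105 bp before it. The H3K4me3 peak held 178 reads over 15 in 1600 bp in NSCs and 27 over 10 in 800 bp in neurons. In neurons it began 296 bp into the gene, and the ratio per kb was 0.30 (0.19 to 0.46).

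The next nearest domains lay upstream of the start sites as well. A 23200 bp NSC domain with 637 reads over 184 began 1541 bp from the start of Mrps30, and a neuron domain with 424 over 146 began 2741 bp from it. The NSC distances of Mrps17 and Mrps22 were 1773 and 1921 bp, with 57 reads over 32 and 268 over 115. In neurons the nearest was at Mrpl34, 1659 bp away, with 38 over 14. The H3K4me3 peaks of these 4 genes were present in both cell types.

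Other gene groups of mitochondrial function and cytosolic translation were set beside the members. Of 82 cytosolic ribosomal protein genes 77 were marked with H3K4me3 in NSCs and 75 in neurons, and of 82 respiratory chain genes 79 and 78. All 12 mitochondrial translation factor genes, all 15 ribosome assembly genes and all 6 mitochondrial ribosome genes with other names were marked in both cell types, and of 17 mitochondrial tRNA synthetase genes 17 and 16 were. The median ratio per kb was 0.38 over cytosolic ribosomal protein genes and 0.43 over respiratory chain genes. It was 0.39 over tRNA synthetase genes, 0.43 over translation factor genes and 0.40 over the mitochondrial ribosome genes with other names. Over the assembly genes it was 0.33, below the members' lower quartile of 0.36. The neuron peaks of the assembly genes kept more width, with a median width ratio of 0.89, against 0.71 over members. Undivided by width, their median ratio of reads per peak was 0.32, against 0.30 over members. The median NSC width was 2800 bp for the cytosolic ribosomal protein genes, 2400 bp for the respiratory chain and 2000 bp for the members. Cytosolic ribosomal protein peaks reached further into the gene, 1933 bp in the median in NSCs against 1227 bp. With Rps27a, the cytosolic gene at that group's median width, the NSC peak held 319 reads in 2800 bp and the neuron peak 116 in 2400 bp.

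By the same peak lists, 6 of 7 neural stem cell markers carried H3K4me3 in NSCs and 7 of 7 in neurons, with Pax6 marked in neurons alone. Of the 5 neuron markers that the deposited files name, 2 carried it in NSCs and 3 in neurons, with Dcx, of doublecortin, also marked in neurons alone. Snap25, of a synaptic fusion protein, had neither mark in either cell type. H3K27me3 was at 3 of these 5 in NSCs and 1 in neurons. Of the 4 astrocyte markers named in the data, 2 carried H3K4me3 in NSCs and 1 in neurons. H3K27me3 was at 0 of these 4 in NSCs and 1 in neurons. The 4 pluripotent cell markers looked for were not among the genes named. The share of neurons in the sorted cells was not tested.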

How the data were processed

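Members and gene lists were chosen with earlier results of these data known. Per the submitters' processing notes, reads were aligned to mm9 with Bowtie and peaks called with SICER, with FastQC and SAMtools also named. Any version or setting was not given in the sources used here. The authors' deposited files are, per library, a list of peaks and a table pairing genes with peaks. Both give whole read counts, not scaled, for the immunoprecipitated and the input library inside each peak (columns 4 and 5 of the lists). They also hold the authors' p-value and FDR per peak, and a fold over input, which is the ratio of the counts times a constant per library (1.02 for NSC and 0.993 for neuron H3K4me3). Listed peaks had an FDR under 0.001, and those in the gene tables one under 1e-20, except for neuron H3K4me3. Reads in peaks totalled 3623654 and 983266 for H3K4me3 and 3272324 and 3161819 for H3K27me3 (NSCs, then neurons), and library totals are not known here. No depth scaling was applied, so a ratio of reads between cell types mixes depth and enrichment. The fold over input carries the authors' constant for each library.

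A start site was the 5′ end of the deposited gene model. A gene was marked by the nearest listed peak within 1000 bp. The peak that the table pairs with the gene was an alternative, since the tables often name a farther one. Reads per kb are counts over peak width, and each library's peak has its own bounds. Intervals of ratios of reads are exact (Clopper-Pearson), and reads without molecular identifiers are not independent molecules. Named are members without H3K4me3, with H3K27me3 or with same-bound peaks, and the 4 highest and 4 lowest by NSC width, NSC density and density ratio. Motifs were searched in RefSeq promoters (GRCm38.p6), found for 67 members, with 9 not found (Mrpl13, Mrpl15, Mrpl19, Mrpl38, Mrpl4, Mrpl54, Mrps28, Mrps34 and Mrps35). RefSeq gene lengths were used without coordinates. The distance and interval steps were tested on simulated data. Scripts ran in Python 3.11.15 (scipy 1.17.1, numpy 2.4.6, pandas 2.3.3), with figures drawn by matplotlib 3.10.9.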

Additional observations from a re-analysis of the deposited data

How the results depend on the processing

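With a start-site limit of 500 or 2000 bp the 74 H3K4me3-marked members and every median over them stayed the same in both cell types. Members with H3K27me3 in NSCs became 0 (500 bp) and 4 (2000 bp), and those with it in neurons became 1 (2000 bp). Shares of all genes were not counted at either limit, so none of these counts has a background. Reads per peak in place of reads per kb moved the median neuron to NSC ratio to 0.297 for immunoprecipitated and 0.623 for input reads, by the narrower neuron peaks. The 4 same-bound members alone gave median ratios of 1 for width, 0.319 for immunoprecipitated reads, 1.07 for input reads and 0.353 for fold over input. A fold limit of 0.4 in place of 0.5 left 33 of 74 members, against 42.6% of all genes. Otherwise the median ratio of immunoprecipitated reads per kb lay between 0.397 (peaks overlapping by 50% of each) and 0.424 (ratio of sums). The peaks named by the gene tables, an FDR under 1e-20, shared peaks counted once and, chosen after seeing the data, leaving out chromosome 1 changed no median beyond its order-statistic 95% interval. At an FDR under 1e-20 the median neuron width was 1800 bp over 50 members, against 1400 bp over 74. That is the upper end of its interval, 1200 to 1800 bp. No member has a pseudogene name, so leaving out pseudogenes was not run. With 1 library per group none could be left out. No paired analysis was possible because each group has 1 library and no test was made. Small counts limit single genes: a member peak held 8 to 59 input reads (NSCs) or 4 to 48 (neurons).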

Other observations

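The deposited gene tables named a peak more than 1000 bp away for 6 members in NSCs and 7 in neurons although the peak lists held one at the start site. The gap was general. Over all genes 70.4% were marked by the peak lists and 58.5% by the gene tables in NSCs, and 61.7% and 51.6% in neurons. For Mrpl2, of the counterpart of bacterial protein L2, both tables named a peak at the start of the neighbouring cullin gene Cul7, 3422 bp away in NSCs and 3622 bp in neurons. For Mrps33 they named peaks 59813 and 59613 bp away, and for Mrpl42 peaks 12239 and 12439 bp away. The peak named for Mrpl33 lay at the start sites of Rbks and Bre, 99892 bp from its own in NSCs.

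In 3 members the NSC peak was covered by 2 neuron peaks. At Mrpl18 they held 118 reads over 2200 bp in all, of which 57 reads were in the peak nearest to the start site. At Mrps18b they held 151 reads over 3200 bp, with 54 in the nearest peak, and at Mrpl48 163 over 3200 bp. The ratio per kb of each of the 3 rests on the nearest peak alone, which at Mrpl48 held 146 reads over 2800 bp.

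Members with the ETS letters in a RefSeq promoter (23 with values) had a median NSC density of 117 reads per kb, and the 42 without 117 as well. Their median neuron to NSC ratios were 0.40 and 0.40.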
